A study of Mus musculus with 6 samples.

Results

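*Bmp4*, *Bmpr1a* and *Id3* stand for 3 steps of bone morphogenetic protein (BMP) signaling, the ligand, its receptor and a target gene. They were chosen by gene symbol, with earlier results of these data known, as 3 of the 621 genes in the deposited table of bone marrow (BM) expression. The ligand *Bmp4* and the target *Id3* had a lower mean in KO than in WT, as did 61.8% of the table, and their groups overlapped. In a part of the libraries, described below, *Id3* was higher in KO. The receptor *Bmpr1a* was higher in every KO library than in every WT library, the order of 5.96% of the table. The 3 KO libraries (replicates 4, 8 and 9) were from *Phc2* knockout mice and the 3 WT libraries (replicates 1, 3 and 7) from wild-type mice, all mice on a C57BL/6 background bred from *Phc2* heterozygotes and aged 8 weeks. The titles and the source of the KO samples give a knockout, whereas their genotype field gives a heterozygote, and they were called KO after the titles and the paper. BM cells of femurs and tibias were used whole, without a sort, and poly(A)-selected RNA was sequenced from both ends. The product of *Phc2* is part of Polycomb repressive complex 1, which keeps target genes silent through histone marks.

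BMPs are secreted dimers of the TGF-beta superfamily. They bind a complex of type I and type II receptor kinases at the cell surface, the type I receptor phosphorylates receptor SMAD proteins, and these enter the nucleus with SMAD4 to switch on target genes, among which the *Id* genes respond directly. ID proteins have a helix-loop-helix region but no DNA-binding region, and they hold E proteins such as the product of *Tcf3* off DNA. In bone, BMPs drive the formation of osteoblasts. In lymphoid cells, *Id3* is also induced by antigen receptor signaling and restrains E proteins during B-cell and T-cell development.

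The 3 genes lie at 2 chromosomes of GRCm38, the assembly that mm10 names. *Bmp4* is on chromosome 14 from 46383525 to 46390669, on the minus strand. *Bmpr1a* is on the same chromosome and strand from 34411061 to 34503336, 11.88 Mb away. *Id3* is on the plus strand of chromosome 4 from 136143822 to 136145392, 7.39 Mb from *Phc2*. *Phc2* itself was not analysed here. In the GENCODE annotation the antisense gene *Gm15222* overlaps *Bmp4* over 1764 bases, and the protein-coding gene *Gm15217*, on the opposite strand, overlaps its end over 89 bases. The antisense gene *Gm17110* overlaps the *Bmpr1a* gene near its start over 970 bases. The sources do not state that strand was used in counting, so reads of these partners cannot be told apart from those of *Bmp4* and *Bmpr1a*. No overlapping gene was found for *Id3*.

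The DNA before 1 RefSeq start of each gene is shown as a description and was not set against the levels of the genes. RefSeq promoters on GRCm38.p6 matched all 3 genes. In the 250 bases before each start, 2 short motifs known to be bound by SMAD proteins were searched on both strands, GGCGCC and the shorter CAGAC, whose other strand reads GTCTG. Capitals mark these motifs. The *Bmp4* sequence is the whole window, chr14:46390670-46390919 on the minus strand. The RefSeq promoter of *Bmpr1a* is set at a start at 34502546, which lies 790 bases inside the outermost bounds of the gene given above, so its window is within those bounds. The *Bmpr1a* sequence is the part of this window outside annotated exons, chr14:34502688-34502796 on the minus strand. The *Id3* sequence is 30 bases around the motif nearest to the start, chr4:136143742-136143771 on the plus strand, since GENCODE places an exon over the whole of that window.
Bmp4: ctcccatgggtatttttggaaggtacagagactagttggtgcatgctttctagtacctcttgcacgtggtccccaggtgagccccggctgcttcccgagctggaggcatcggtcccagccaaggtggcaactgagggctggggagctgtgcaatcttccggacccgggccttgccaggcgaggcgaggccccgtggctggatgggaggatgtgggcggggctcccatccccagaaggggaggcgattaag
Bmpr1a: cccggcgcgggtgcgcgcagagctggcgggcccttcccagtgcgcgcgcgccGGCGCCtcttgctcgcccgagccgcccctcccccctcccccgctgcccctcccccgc
Id3: ggacccttggcgGTCTGttttgaataaggg
The *Bmp4* window held neither motif. The *Bmpr1a* window held GGCGCC at 1 place, 198 to 193 bases before the start at 34502546, which 9.59% of 32851 promoter windows of the same length also hold. The *Id3* window held CAGAC at 167 to 163 bases and GTCTG at 68 to 64 bases before the start. A match to this short motif on either strand is present in 42.2% of windows. These matches are a description of letters and not of binding.

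The libraries of both genotypes fell into 2 sets by *Xist*, the noncoding RNA of the inactive X chromosome in female cells, and the members follow these sets to different degrees. *Xist* was above 1 FPKM in KO replicate 4 and WT replicates 1 and 3, at 74.6 to 113 FPKM, and at 0.0192 FPKM or less in KO replicates 8 and 9 and WT replicate 7. FPKM scales the fragments of a gene by its exon length and by the number of fragments mapped. Each of the 621 genes was put in the table by the authors because 1 or more of its 9 KO to WT library pairs differed by a fold of 2 or above, so the KO against WT values of the members are given as a description, without a test. None of the 621 genes (0% of the table) passed an adjusted p of 0.05 between KO and WT in limma on log2(FPKM + 1), and with p unadjusted 8 genes above and 6 below WT had a value under 0.05. Library depth was not determined, and nothing in the sources states that the libraries are from separate mice. The mean log2(FPKM + 1) was lower in KO for 61.8% of the genes in the table, with a median difference of -0.35.

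*Bmp4* encodes a ligand that acts in bone formation and in the marrow niche. Its level was 1.09, 0.153 and 0.123 FPKM in KO replicates 4, 8 and 9, against 1.24, 1.53 and 0.291 FPKM in WT replicates 1, 3 and 7. The groups overlapped, since KO replicate 4 lay above WT replicate 7. The mean with SD (n = 3 in both) was 0.455 ± 0.549 FPKM over the KO libraries and 1.02 ± 0.648 FPKM over the WT libraries, so that the spread within each genotype was about as large as the difference between them. The difference of KO minus WT was -0.48 on the log2(FPKM + 1) scale (standard error 0.44), a scale that understates the change of a gene near 1 FPKM. With a pseudocount of 0.1 the difference of *Bmp4* was -1.22. Leaving out KO replicate 4 or WT replicate 7 gave -0.77, and leaving out WT replicate 3 gave -0.29. It was in the table for 2 pairs of libraries with a fold of at least 2 downward, the largest of which was a KO to WT ratio of 0.470 on the authors' normalized scale.

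The level of *Bmp4* followed the *Xist* sets. It was at 1.09 to 1.53 FPKM in the 3 libraries with *Xist* and at 0.123 to 0.291 FPKM in the 3 others, a ratio of means of 6.80. These sets did not overlap, which held for 37.7% of the genes in the table. Within each set every KO library was below every WT library. With *Xist*, *Bmp4* was at 1.09 FPKM in KO replicate 4, against a mean of 1.39 FPKM in WT replicates 1 and 3. Without *Xist* it had a mean of 0.138 FPKM in KO replicates 8 and 9, against 0.291 FPKM in WT replicate 7. Such an order, lower in KO in both sets, was found for 12.7% of the genes in the table. After quantile normalization or scaling of the libraries to the same median, KO replicate 4 no longer lay below both WT libraries of its set.

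*Bmpr1a* encodes the type I receptor kinase ALK3, which binds BMP4 and is made by stromal and hematopoietic cells. Its level was 3.73, 2.84 and 3.30 FPKM in KO replicates 4, 8 and 9, against 1.13, 1.50 and 1.90 FPKM in WT replicates 1, 3 and 7. All KO libraries were above all WT libraries, and the lowest KO library was 1.50 times the highest WT library. The mean with SD (n = 3 in both) was 3.29 ± 0.446 FPKM over the KO libraries and 1.51 ± 0.383 FPKM over the WT libraries, a ratio of 2.18. The difference was 0.78 on the log2(FPKM + 1) scale (standard error 0.43). Such a separation of KO from WT, in either direction, was found for 7.25% of the genes in the table and with KO higher for 5.96%, and 31 of the 621 genes had a larger log2 difference than *Bmpr1a*. It was in the table for 2 pairs with a fold of at least 2 upward, the largest at 2.33 on the authors' normalized scale, and the lowest of its 9 pairs was at 1.29.

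Unlike the ligand, *Bmpr1a* did not separate the *Xist* sets, which lay at 1.13 to 3.73 FPKM with *Xist* and 1.90 to 3.30 FPKM without. Within both sets it was higher in KO, which follows from the separation of all KO from all WT libraries. With *Xist* it was at 3.73 FPKM in KO and had a mean of 1.31 FPKM in WT, a ratio of 2.84. Without *Xist* it had a mean of 3.07 FPKM in KO and was at 1.90 FPKM in WT, a ratio of 1.62. An order higher in KO in both sets was found for 12.1% of the genes in the table. The groups also stayed apart on the authors' normalized log2 values, after quantile normalization, after median scaling and with a pseudocount of 0.1. The log2 difference of *Bmpr1a* was 0.67 to 0.89 when each library was left out in turn, and its sign follows from the same separation.

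*Id3* was the most abundant of the 3 in every library. Its level was 22.5, 20.8 and 16.9 FPKM in KO replicates 4, 8 and 9, against 40.4, 35.1 and 12.7 FPKM in WT replicates 1, 3 and 7. WT replicates 1 and 3 were above all KO libraries and WT replicate 7 was below all of them, so the groups overlapped. The mean with SD (n = 3 in both) was 20.1 ± 2.85 FPKM over the KO libraries and 29.4 ± 14.7 FPKM over the WT libraries. The KO libraries thus lay close together, while the lowest WT library was far below the other two. The log2 difference of *Id3* was -0.38 (standard error 0.51). Leaving out WT replicate 7 gave -0.88, leaving out WT replicate 1 gave -0.09 and leaving out WT replicate 3 gave -0.18. It was in the table for 2 pairs with a fold of at least 2 downward, the largest a ratio of 0.440 on the authors' normalized scale.

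*Id3* was also higher in the libraries with *Xist*, at 22.5 to 40.4 FPKM, than in those without, at 12.7 to 20.8 FPKM, a ratio of means of 1.94. After median scaling these sets overlapped. Within the sets *Id3* went opposite ways. With *Xist* it was at 22.5 FPKM in KO, against a mean of 37.8 FPKM in WT, a ratio of 0.595. Without *Xist* it had a mean of 18.9 FPKM in KO, against 12.7 FPKM in WT, a ratio of 1.49. Lower in KO with *Xist* and higher in KO without it was the order of 28.2% of the genes in the table. The difference between the sets was not tested, and each comparison has a single library on one side.

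**Figure D1:**
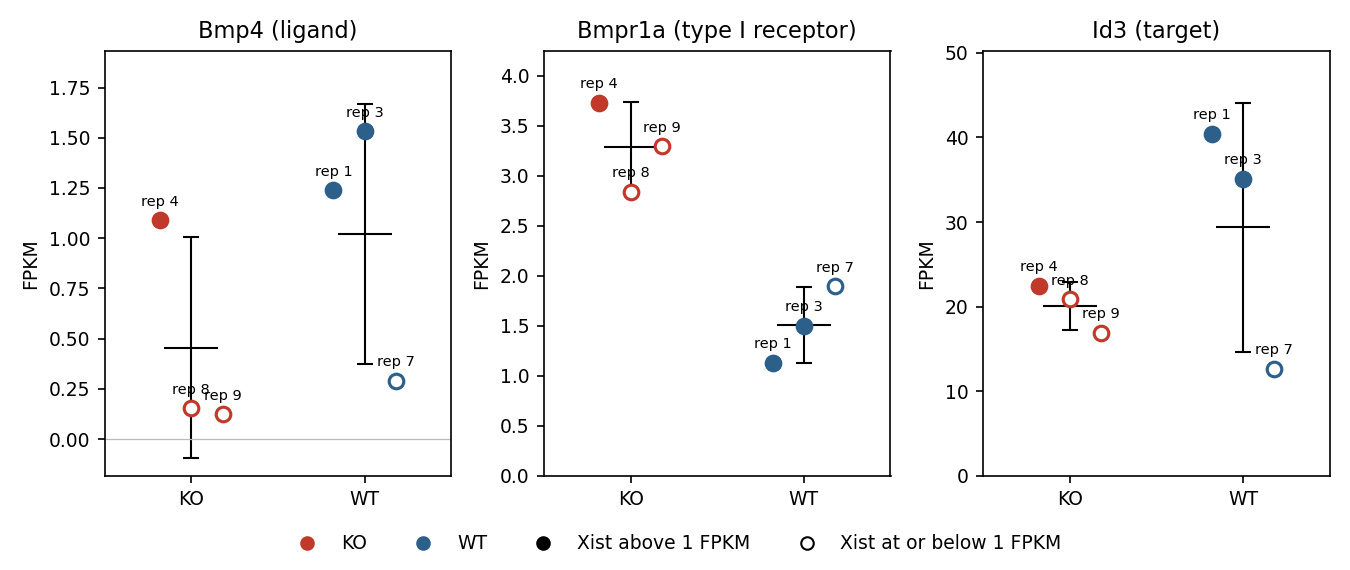
FPKM of *Bmp4*, *Bmpr1a* and *Id3* in each library, with KO on the left and WT on the right of each panel. Filled points are libraries with *Xist* above 1 FPKM, open points the others, and the bars give the mean and SD of 3 libraries. *Bmpr1a* is at 2.84 to 3.73 FPKM in KO and 1.13 to 1.90 FPKM in WT without overlap, whereas *Bmp4* and *Id3* overlap between genotypes and are higher in the filled points.

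Since FPKM is scaled to exon length, the levels of the 3 genes can be set against each other within a library, which also removes any scaling between libraries. The receptor was 3.43, 18.6 and 26.7 times the ligand in FPKM in KO replicates 4, 8 and 9, against 0.913, 0.977 and 6.51 times in WT replicates 1, 3 and 7. KO replicate 4 lay below WT replicate 7, so the groups overlapped. Within each *Xist* set every KO library had the higher ratio of *Bmpr1a* to *Bmp4*, which follows from the orders of these genes given above. The target was 6.02, 7.34 and 5.14 times the receptor in the KO replicates, against 35.7, 23.4 and 6.69 times in the WT replicates. The ratio of *Id3* to *Bmpr1a* was thus of like size in all KO libraries and in WT replicate 7, and higher in WT replicates 1 and 3. The ratio of *Id3* to *Bmp4* was 20.6, 136 and 137 in the KO replicates and 32.6, 22.9 and 43.5 in the WT replicates. It was high in KO replicates 8 and 9, where *Bmp4* was lowest.

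**Figure D2:**
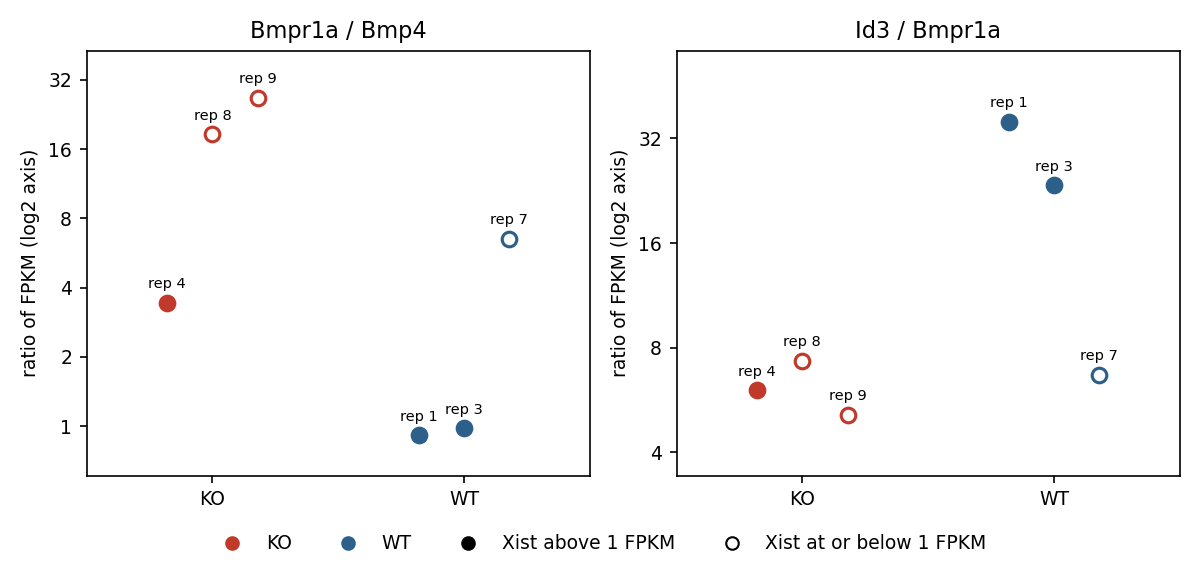
Ratio of FPKM within each library on a log2 axis, for *Bmpr1a* over *Bmp4* and for *Id3* over *Bmpr1a*, with KO on the left and WT on the right. Filled points are libraries with *Xist* above 1 FPKM and open points the others. *Bmpr1a* over *Bmp4* is 3.43 to 26.7 in KO and 0.913 to 6.51 in WT. The ratio is higher in KO among the filled points and among the open points, which follows from the orders of these genes.

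Few other genes on the pathway lists were in the table. From lists made for this comparison, it held 1 of 18 BMP ligands (*Bmp4*), 1 of 13 BMP receptors and coreceptors (*Bmpr1a*), 2 of 20 inhibitors and extracellular regulators, 2 of 16 target genes, 0 of 12 SMADs and their regulators, 1 of 14 TGF-beta and activin ligands, receptors and binding proteins and 1 of 3 E proteins. The other ligands, the type II receptors, the SMADs and the other *Id* genes were not analysed here. Of the 8 genes found, the mean log2(FPKM + 1) in KO was higher for *Bmpr1a* and lower for the 7 others, beside a lower mean in 61.8% of the whole table. None of the 8 passed the limma threshold, as for the table as a whole.

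The extracellular regulators behaved as *Bmp4* did between the *Xist* sets. *Fstl1* encodes a secreted glycoprotein that binds BMP4. Its level was 7.22, 3.32 and 4.01 FPKM in KO replicates 4, 8 and 9, against 11.7, 11.5 and 3.83 FPKM in WT replicates 1, 3 and 7. KO replicate 4 was between the low and the high libraries. *Bmp1*, despite its name, encodes a metalloprotease that cleaves the BMP inhibitor chordin and procollagens. Its level was 4.39, 1.99 and 2.03 FPKM in the KO replicates, against 6.34, 5.06 and 2.17 FPKM in the WT replicates. The log2 difference was -0.71 for *Fstl1* (standard error 0.51) and -0.51 for *Bmp1* (standard error 0.48). Both genes were higher in each library with *Xist* than in each library without.

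Among targets, *Sp7* encodes osterix, a transcription factor of osteoblast formation that acts downstream of BMP signaling. Its level was 1.72, 0.445 and 0.456 FPKM in KO replicates 4, 8 and 9, against 3.16, 2.55 and 0.378 FPKM in WT replicates 1, 3 and 7. It was thus lower in KO with *Xist* and slightly higher in KO without, as *Id3* was, but after median scaling KO and WT overlapped in *Sp7* without *Xist*. *Tcf3* encodes the E proteins E12 and E47, which ID3 binds. Its level was 70.7, 81.8 and 87.9 FPKM in the KO replicates, against 165, 98.4 and 66.7 FPKM in the WT replicates. As with *Id3*, WT replicates 1 and 3 were above all KO libraries and WT replicate 7 was below them. The log2 difference was -0.61 for *Sp7* (standard error 0.48) and -0.36 for *Tcf3* (standard error 0.51).

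*Ltbp2* encodes an extracellular matrix protein of the latent TGF-beta binding protein family. Its level was 1.92, 0.632 and 0.635 FPKM in KO replicates 4, 8 and 9, against 2.29, 2.58 and 0.852 FPKM in WT replicates 1, 3 and 7, and it was lower in KO within both *Xist* sets, as *Bmp4* was. After median scaling KO and WT overlapped in *Ltbp2* with *Xist*. The deposited KEGG map of TGF-beta signaling held 5 genes of the table, namely the 3 members, *Dcn* and *Thbs1*. The map of pathways regulating pluripotency of stem cells held the 3 members with *Pik3r1* and *Tcf3*. *Dcn*, encoding the proteoglycan decorin, which binds TGF-beta, was at 12.1, 2.56 and 2.90 FPKM in the KO replicates, against 22.4, 13.8 and 2.19 FPKM in the WT replicates. *Thbs1* encodes thrombospondin-1, which activates latent TGF-beta. Its level was 16.3, 25.4 and 28.4 FPKM in the KO replicates, against 20.5, 21.7 and 91.6 FPKM in the WT replicates. Its lower mean in KO thus came with a single high library, WT replicate 7.

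**Figure D3:**
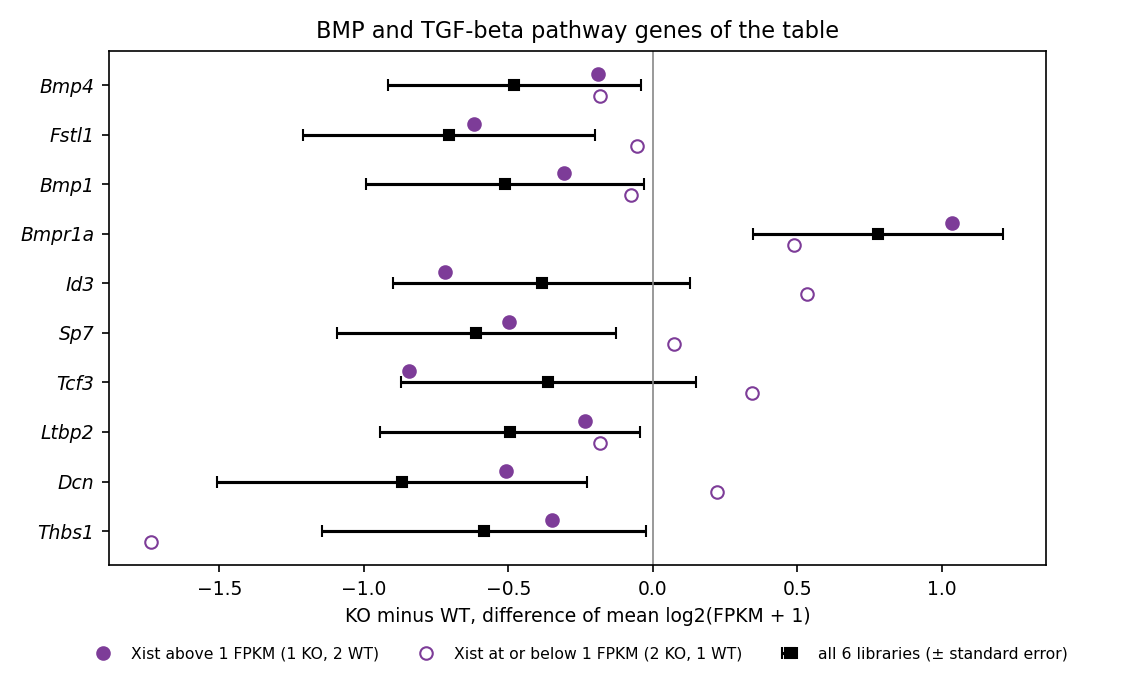
Difference of mean log2(FPKM + 1), KO minus WT, for the 10 genes of the table on the BMP and TGF-beta pathway lists or the KEGG TGF-beta map. Squares with bars give all 6 libraries and the standard error, filled circles the libraries with *Xist* above 1 FPKM and open circles the others. *Bmpr1a* lies at 0.78 and above 0 in both sets, which follows from the separation of its groups. *Bmp4* lies at -0.48 and below 0 in both sets, and *Id3* at -0.38 with -0.72 and 0.53 in the sets.

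The genes most like each member over the 6 libraries were named by Pearson's r of log2(FPKM + 1) among 549 or 550 genes with a mean of at least 1 FPKM, as a description. The 6 libraries fall into sets that these genes share, so that the r values have no p. The 5 genes most like *Bmp4* had r from 0.991 to 0.999. They were *Ltbp2*, the platelet lipoxygenase gene *Alox12*, the platelet chemokine gene *Ppbp*, the elastic fiber gene *Fbln5* and *Cald1*, encoding the actin-binding protein caldesmon. All of these 5 were higher in each library with *Xist* than in each library without, the order of *Bmp4* for which they were picked and of 28.2% of the table. *Ppbp*, for example, had 24.6, 7.78 and 9.30 FPKM in KO replicates 4, 8 and 9, against 29.1, 32.5 and 11.6 FPKM in WT replicates 1, 3 and 7. *Gp1bb*, the other megakaryocyte and platelet marker in the table, did not have this order. Its level was 17.0, 1.53 and 1.62 FPKM in the KO replicates, against 2.55, 2.80 and 14.2 FPKM in the WT replicates.

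The 5 genes most like *Bmpr1a* had r from 0.958 to 0.986, and each of them was higher in all KO libraries than in all WT libraries, which was the order of 5.96% of the table. As they were picked for their likeness to *Bmpr1a*, which has this order, nothing further is read from it. *Hmox1*, encoding the heme-degrading enzyme heme oxygenase-1, had 122, 89.1 and 104 FPKM in KO replicates 4, 8 and 9, against 55.7, 68.9 and 74.0 FPKM in WT replicates 1, 3 and 7. *Cd163*, encoding the macrophage receptor for hemoglobin bound to haptoglobin, was at 9.84, 9.40 and 11.0 FPKM in the KO replicates, against 4.35, 6.39 and 6.56 FPKM in the WT replicates. The others were *Cd59a*, encoding a complement inhibitor, *Lax1*, encoding an adaptor of lymphocyte signaling, and *Ccl5*, encoding a chemokine of T cells and NK cells. The 5 genes most like *Id3* had r from 0.960 to 0.978. They were *Slamf9*, encoding a receptor of the SLAM family on immune cells, *Col5a3*, encoding a collagen chain, *Klhl14*, *Fam43a* and *Ubd*, encoding a ubiquitin-like modifier. *Slamf9* was at 6.22, 5.30 and 4.67 FPKM in the KO replicates, against 12.6, 9.90 and 4.12 FPKM in the WT replicates, the same order of the 6 libraries as *Id3*.

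Markers of marrow cell types also differed between the libraries. In bulk RNA, fewer cells of a type and less RNA per cell cannot be told apart. Of 16 osteoblast markers, 12 were in the table, *Sp7* among them. All 12 had a lower mean in KO, as did 61.8% of the genes in the table. Their median log2 difference was -0.67, beside -0.35 for the whole table. Averaged in log2(FPKM + 1), they were at 4.52, 2.88 and 3.09 in KO replicates 4, 8 and 9, against 5.34, 4.79 and 2.72 in WT replicates 1, 3 and 7. The collagen gene *Col1a1* was at 216, 26.6 and 31.6 FPKM in the KO replicates, against 471, 284 and 23.0 FPKM in the WT replicates. It was thus high in the 3 libraries with *Xist*. Of 13 endothelial markers, 6 were in the table and all had a lower mean in KO, with a median log2 difference of -0.69. Their mean was 1.82, 0.990 and 0.930 in the KO replicates, against 2.32, 2.33 and 1.06 in the WT replicates. The 4 of 13 reticular and mesenchymal stromal markers in the table had a mean of 4.05, 3.18 and 3.36 in the KO replicates, against 3.92, 3.87 and 3.12 in the WT replicates. In the means of these 3 lists, as for *Bmp4*, the libraries with *Xist* were all above those without. This was the order of 28.2% of the single genes in the table. None of the markers in the table was at 0 FPKM. Within the set without *Xist*, *Bmp4* and the endothelial mean were lower in KO, whereas the osteoblast mean was higher in KO. The reticular and stromal mean was higher in KO within both sets, the opposite of *Bmp4*, but with *Xist* its markers differed. *Ly6a* was at 26.7 FPKM in KO replicate 4, against 14.4 and 12.4 FPKM in WT replicates 1 and 3. *Adipoq* was at 21.1 FPKM against 22.4 and 21.0 FPKM, and *Igfbp5* at 21.6 FPKM against 25.3 and 22.8 FPKM. The part of these cell types in the level of *Bmp4* was not tested.

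For *Bmpr1a*, 4 of 13 monocyte, macrophage and dendritic cell markers were in the table, and these were *Cd74* and 3 chains of MHC class II, which B cells also make. The median log2 difference of these markers was 0.87. Averaged in log2(FPKM + 1), they were at 8.38, 8.22 and 8.53 in KO replicates 4, 8 and 9, against 7.03, 7.34 and 8.17 in WT replicates 1, 3 and 7. All KO libraries were above all WT libraries in this mean, the order of 5.96% of the single genes in the table. WT replicate 7 was close to the lowest KO library in this mean. In *Bmpr1a* it lay further from the KO libraries, at 1.90 FPKM against 2.84 FPKM. The 8 of 14 T-cell and NK cell markers in the table had a mean of 3.87, 3.02 and 3.62 in the KO replicates, against 2.20, 2.46 and 3.40 in the WT replicates, with overlap. For *Id3*, 10 of 12 B-cell precursor markers were in the table. All had a lower mean in KO, as did 61.8% of the genes in the table. Their median log2 difference was -0.42, close to -0.35 for the whole table. Their mean was 5.07, 5.47 and 5.25 in the KO replicates, against 6.43, 5.62 and 4.93 in the WT replicates, so that, as for *Id3*, WT replicates 1 and 3 were highest and WT replicate 7 lowest, while the order of the KO libraries differed. *Vpreb3*, part of the pre-B-cell receptor pathway, was at 128, 184 and 147 FPKM in the KO replicates, against 374, 244 and 121 FPKM in the WT replicates. *Igll1*, on the same list, was at 44.9, 57.5 and 45.1 FPKM, against 110, 43.1 and 33.5 FPKM. In this marker WT replicate 3 was below all KO libraries. None of the 10 granulocyte markers or the 8 markers of hematopoietic stem and progenitor cells on the lists was among the 621 genes, so the label of the tissue was read from the other lists only. The part of these cells in the levels of *Bmpr1a* and *Id3* was not tested.

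**Figure D4:**
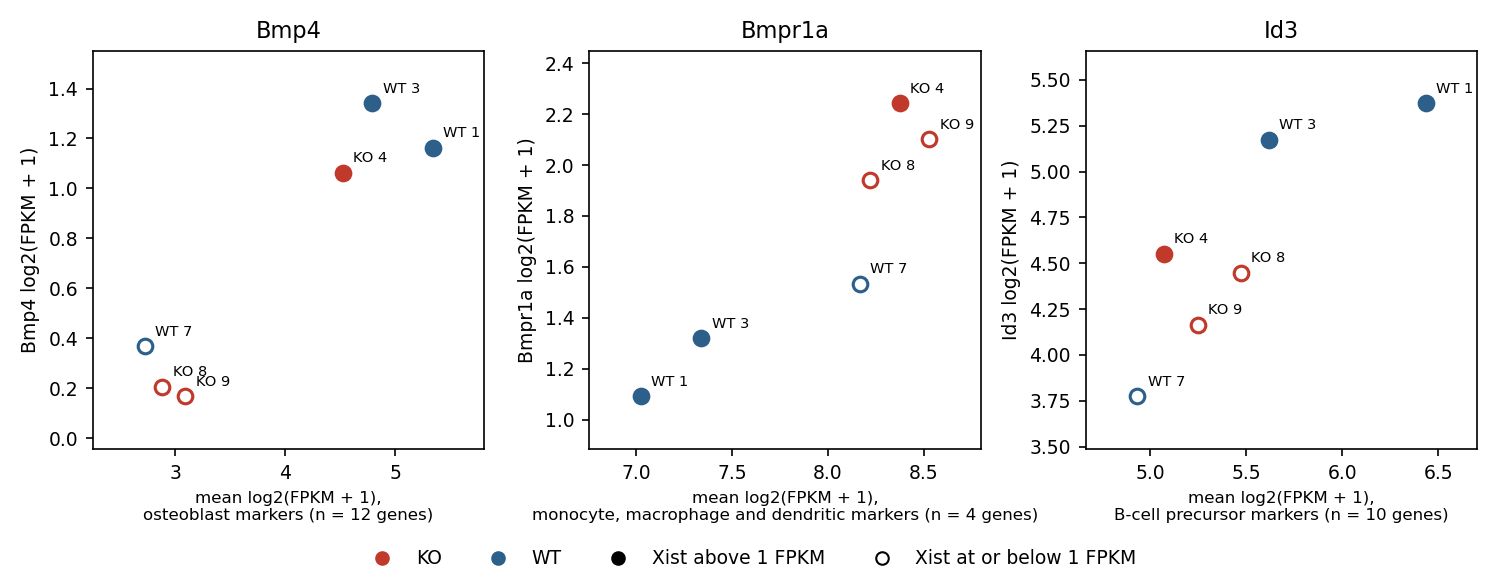
Level of each member in log2(FPKM + 1) against the mean log2(FPKM + 1) of a marker list in the same library, for *Bmp4* with 12 osteoblast markers, *Bmpr1a* with 4 monocyte, macrophage and dendritic cell markers and *Id3* with 10 B-cell precursor markers. The 4 markers set beside *Bmpr1a* are *Cd74* and 3 chains of MHC class II, which B cells also make. Each point is a library, KO or WT by color, filled where *Xist* is above 1 FPKM. *Bmp4* and the osteoblast mean are high in the same 3 libraries, and WT replicate 7 is lowest in both *Id3* and the B-cell precursor mean. Among the open points *Bmp4* is lower in KO, whereas the osteoblast mean is higher in KO.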

How the data were processed

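RNA of BM cells was sequenced in 3 KO and 3 WT libraries. As stated in the methods of the paper and in the submitters' processing notes, the authors aligned reads to mm10 with HISAT2 version 2.0.5 and estimated FPKM for each library with StringTie version 1.3.3b. The authors deposited FPKM and a normalized log2 value per gene and library for 621 genes selected for differing by a fold of 2 or more in any library pair, which was checked on the values. No source used here names the normalization of the log2 columns. Other deposited columns hold the authors' folds and enrichment statistics and were not used, except that KEGG pathway numbers, deposited as other annotation, gave the maps of each gene. Reads were not used, so no depth or counting interval can be stated.

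On the log2(FPKM + 1) scale, KO was compared to WT over genes above 0 in at least 3 libraries (all 621) in R version 4.3.3 by limma version 3.58.1, using an intensity trend and Benjamini-Hochberg adjustment. The step was tested on simulated data, with larger changes than those of the members and less spread than in *Bmp4* and *Id3*. Whether it could call changes as small as those of the members was not tested. Standard errors come from this fit, in which 4 residual degrees of freedom were joined by 17.8 of the variance prior. The members, gene lists, naming rule and alternatives were chosen with earlier results of these data known. Named genes were the members, the pathway list genes in the table, the 5 genes most like each member that are not predicted genes, and up to 3 markers of highest mean where a list is set beside a member, with *Sp7* as a pathway gene. *Dcn*, *Thbs1* and *Pik3r1* were named from the deposited KEGG maps. Alternatives were another pseudocount, filters, scalings, the deposited log2 values, no trend, a threshold of 0.01, an *Xist* term, the *Xist* sets and leaving out each library. Other steps used Python version 3.11.15, and coordinates and promoters are from RefSeq on GRCm38.p6.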

Additional observations from a re-analysis of the deposited data

Results flagged for a closer look

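In 4 pathway genes every KO library was below the WT libraries among those with *Xist* above 1 FPKM and above the WT library among the others, and the difference between the sets was not tested. The log2 difference of KO minus WT was -0.72 with *Xist* and 0.53 without for *Id3*. It was -0.84 and 0.34 for *Tcf3*, -0.50 and 0.07 for *Sp7*, and -0.51 and 0.22 for *Dcn*. After median scaling KO and WT overlapped in *Sp7* without *Xist*. The same order was found for 28.2% of the 621 genes.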

How the results depend on the processing

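Under all settings tried the log2 difference stayed below 0 for *Bmp4* and above 0 for *Bmpr1a*. In the *Xist* sets and on leaving out a library, the sign of *Bmpr1a* follows from the separation of its groups. The difference of *Id3* stayed below 0 except at 0.53 in the libraries without *Xist*. With a pseudocount of 0.1 the difference of *Bmp4* was -1.22 and that of *Bmpr1a* 1.09. Within the libraries with *Xist* the difference of *Bmpr1a* was 1.04, and within the others 0.49. With *Xist* as a term of the model the differences were -0.19 for *Bmp4*, 0.76 for *Bmpr1a* and -0.09 for *Id3*. Leaving out each library in turn gave -0.77 to -0.29 for *Bmp4*, 0.67 to 0.89 for *Bmpr1a* and -0.88 to -0.09 for *Id3*. The number of genes called by limma was 0 to 1 when each library was left out, namely *Xist* without KO replicate 4 and *Atp6v0c-ps2* without KO replicate 9, both chosen after their values were seen, and 0 under the other alternatives. Quantile normalization moved the median difference over the table to -0.18 and median scaling moved it to -0.22, against -0.35 without them. No paired analysis was possible because the labels give no pairing of KO and WT libraries. The low level of *Bmp4*, under 0.3 FPKM in 3 of 6 libraries, limits the precision of its ratios, and the error from depth was not determined.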
